A study of Rattus norvegicus with 24 samples.

Results

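The myosin heavy chain genes Myh3, Myh4, Myh7 and Myh8 were followed through 30 days of daily resistance training of the rat tibialis anterior, a fast ankle flexor of the lower leg. All transcripts that carried one of these 4 gene symbols were taken, which gave 9 of the 20027 transcripts of the expression table, and 6 of the 9 were named Myh4. RNA came from 12 adult male Wistar rats, 3 each after 2, 10, 20 and 30 days. In each animal the left muscle was trained once a day by an implanted pulse generator that drove the nerve (the "spillover" method), the right muscle was left unstimulated as contralateral control, and both were removed 1 h after the last session, giving 24 muscles. The control is therefore the other leg of a trained and operated animal. Poly(A) RNA was read from whole muscle, so that fewer fibers of a type and less RNA per fiber cannot be told apart.

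Myosin heavy chain is the motor protein of the thick filament, and the isoform that a fiber makes sets how fast it contracts and names its type. Adult rat limb muscle uses a slow form (type I, from Myh7) and the fast forms IIA (Myh2), IIX (Myh1) and IIB (Myh4), ordered from the more oxidative to the fastest and most glycolytic. Myh3 and Myh8 encode the embryonic and neonatal forms, which are made in developing muscle and again in regenerating fibers. The fast and the developmental genes lie side by side in 1 cluster, whereas Myh7 lies elsewhere next to the cardiac gene Myh6.

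No transcript in the table was named Myh1 or Myh2, and the 6 transcripts named Myh4 (gene ENSRNOG00000049695) lay along the whole fast cluster on chromosome 10, forward strand, of Rnor_6.0. The cluster order Myh3, Myh2, Myh1, Myh4, Myh8 in the RefSeq annotation of the later build GRCr8 was used to assign them. Myh4-201 (chr10:53713938-53738031) lay at the position of Myh2 and is called the IIA transcript here. Myh4-202 (chr10:53740841-53764610) lay at the position of Myh1 and is called the IIX transcript. Myh4-203 (chr10:53778662-53801603) and Myh4-204 (chr10:53781239-53848347) overlapped at the position of Myh4 itself and are called the IIB transcripts. Myh4-205 (chr10:53713941-53764500) and Myh4-206 (chr10:53713938-53848347) ran across more than 1 of these positions and were kept apart. Myh3-201 (chr10:53621375-53645194) and Myh8-201 (chr10:53818818-53918524) flanked them, with the end of Myh4-204 and Myh4-206 inside the span of Myh8-201, and Myh7-201 lay on chromosome 15, reverse strand (chr15:33634422-33656089). These genes are near-identical over long stretches, and how reads that fit several of them were divided was not given in the sources used here, so the split of signal between neighboring transcripts is uncertain.

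Because the IIX and IIB transcripts moved in opposite directions, the 250 bases before the start sites of the fast genes are shown, from the RefSeq promoter table for GRCr8, forward strand (a different build from that of the expression table). Capitals mark matches on either strand to the E-box CANNTG, the MEF2 box, the TATA box TATAAA and the CArG box, and the M-CAT box CATTCC and the MEF3 box TCAGGTT were searched without marking. They are Myh2 (chr10:52355489-52355738), Myh1 (chr10:52384662-52384911) and Myh4 (chr10:52421898-52422147).
Myh2: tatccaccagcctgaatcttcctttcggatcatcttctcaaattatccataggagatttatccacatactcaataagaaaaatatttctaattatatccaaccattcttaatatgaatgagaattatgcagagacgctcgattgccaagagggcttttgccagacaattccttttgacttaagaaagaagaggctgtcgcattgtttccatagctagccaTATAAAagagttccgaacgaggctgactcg
Myh1: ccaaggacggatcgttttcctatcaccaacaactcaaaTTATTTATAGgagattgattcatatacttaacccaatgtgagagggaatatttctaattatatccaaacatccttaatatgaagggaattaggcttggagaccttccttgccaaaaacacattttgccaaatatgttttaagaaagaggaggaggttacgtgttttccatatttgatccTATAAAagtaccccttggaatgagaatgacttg
Myh4: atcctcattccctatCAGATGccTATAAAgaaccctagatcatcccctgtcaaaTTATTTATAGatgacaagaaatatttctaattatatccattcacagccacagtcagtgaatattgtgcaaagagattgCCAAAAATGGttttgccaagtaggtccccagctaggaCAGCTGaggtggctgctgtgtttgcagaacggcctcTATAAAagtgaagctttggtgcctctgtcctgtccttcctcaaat
The Myh4 window held 2 E-boxes, with first bases at -235 and -81 from the start site, a CArG box at -118 and a MEF2 box at -196. The Myh1 window held the same letters of the MEF2 box at -212 and no E-box or CArG box, and the Myh2 window held none of these 3. A TATA match lay near the start in each, at -30 for Myh2, -33 for Myh1 and -45 for Myh4. The MEF2 box of Myh1 and Myh4 also contained a TATA match on the other strand, at -209 and -193. Myh4 held a further TATA match at -227. An M-CAT match lay at -17 in Myh1 and -245 in Myh4, and no window held a MEF3 match. Of 33469 windows of this length in the table, 65.5% held an E-box, 2.96% a MEF2 box, 12.9% a TATA match, 1.5% a CArG box, 12.1% an M-CAT and 3.30% a MEF3 match, so the matches describe the letters only.

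The values were TPM-type and rescaled per muscle, with factors from 0.778 to 1.14, and sequencing depth cannot be read from them. A share is the value of 1 transcript over the summed value of all 9 in the same muscle, in percent, so the rescaling cancels. Shares of a muscle add up to 100, and a rise of one lowers the others. All 9 transcripts passed the filter on low values, as did 13452 of all transcripts. Mitochondrial transcripts made 23.4% to 43.9% of the deposited total, highest among controls at 43.7% in contralateral 30 days replicate 1. Replicates 2 and 3 of that group were at 34.6% and 29.7%. In trained muscles they made 25.5%, 24.9% and 28.45% at 2 days and 24.1%, 23.4% and 27.4% at 10 days. At 20 days they made 33.0%, 31.1% and 35.5% and at 30 days 39.9%, 43.0% and 43.9%. Summed markers of fibroblasts (4 of 4 detected) ranged from 70.1 to 242 in contralateral and from 285 to 939 in trained muscles, and those of macrophages (4 of 4) from 3.67 to 10.2 and from 11.6 to 33.1. Their part in the results below was not tested. Of 7 markers of skeletal muscle, 6 were in the table, and their sum was between 34386 and 64635 in every muscle.

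Contralateral muscles were mainly IIB and IIX. Over the 12 of them, Myh4-203 held 41.1% ± 5.19 (SD, n = 12) of the myosin signal and Myh4-204 20.1% ± 3.03. The IIX transcript held 30.3% ± 7.85, the IIA transcript 6.19% ± 1.20 and slow Myh7-201 1.34% ± 0.298. The spanning transcripts Myh4-205 and Myh4-206 followed with 0.733% ± 0.153 and 0.0928% ± 0.0601, and Myh3-201 and Myh8-201 stood last with 0.0442% ± 0.0105 and 0.0333% ± 0.00933. The range of the IIX transcript (16.8% to 43.7%) overlapped those of Myh4-203 (30.1% to 49.1%) and Myh4-204 (14.6% to 24.9%), which did not overlap each other. In the order of means, the ranges of Myh7-201 (0.950% to 1.85%) and Myh4-205 (0.561% to 1.06%) also overlapped, as did those of the last 3. The IIA transcript (4.33% to 8.68%) overlapped neither neighbor.

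**Figure D1:**
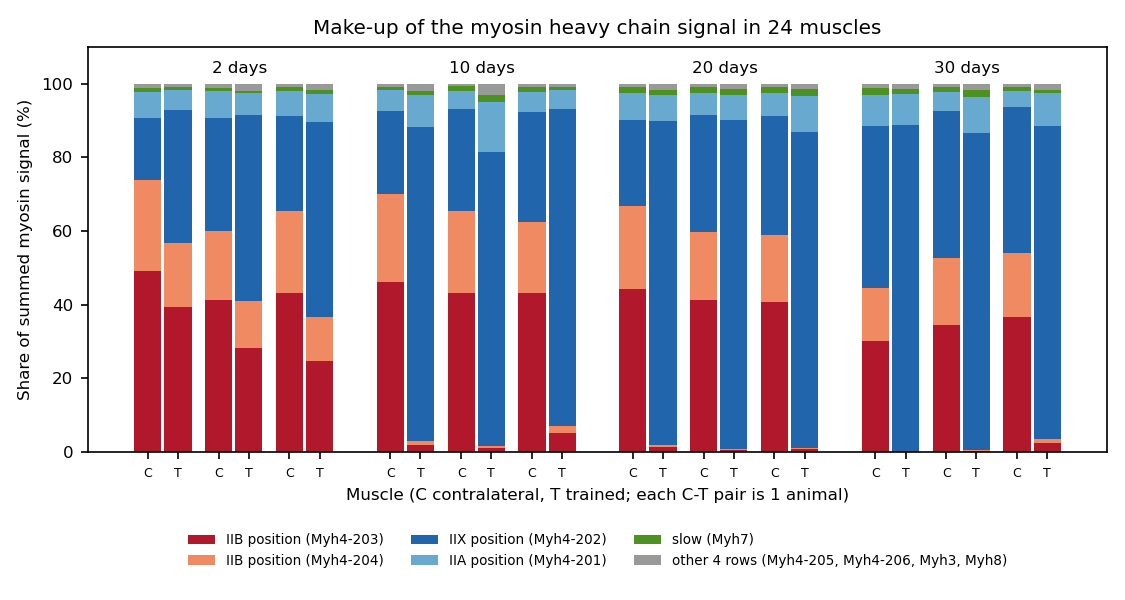
Stacked bars give the share of each transcript in the summed myosin signal (y axis, percent) of the 24 muscles (x axis, C contralateral and T trained, each pair 1 animal, grouped by day). The IIB transcripts together make 44.7% to 74.0% of the bar in contralateral muscles and 0.391% to 7.13% in trained muscles from 10 days on.

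The IIX transcript became the main myosin of the trained muscle. At 2 days its share was 36.2%, 50.3% and 52.9% in the 3 trained muscles, beside 16.8%, 30.7% and 25.9% in their own contralateral muscles. At 10 days it was 85.4%, 80.0% and 85.9% beside 22.8%, 27.5% and 29.9%. All 3 trained muscles were above their partners on both days, and at 10 days the groups were far apart. At 20 days the shares were 87.9%, 89.2% and 85.8% beside 23.5%, 31.6% and 32.2%, and at 30 days 88.6%, 86.1% and 85.0% beside 43.7%, 39.8% and 39.7%. Trained muscles of 10, 20 and 30 days all lay between 80.0% and 89.2%, above the highest contralateral muscle, whereas 1 trained muscle of 2 days lay within the contralateral range.

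The mean IIX share at 2, 10, 20 and 30 days was 46.4% ± 9.01, 83.8% ± 3.26, 87.7% ± 1.70 and 86.6% ± 1.81 (SD, n = 3 each). Against the 12 contralateral muscles the differences were 16.1, 53.5, 57.3 and 56.2 percentage points, with p = 0.0176 at 2 days and p = 0.0044 on each later day (two-sided exact permutation test, smallest possible p = 0.0044; 36 share comparisons of transcript and day were made, unadjusted). The 2-day p rested on trained replicates 2 and 3: without replicate 2 the difference was 14.2 points and without replicate 3 it was 12.9 points, both with exact permutation p = 0.0879, whereas without replicate 1 it was 21.3 points (exact permutation p = 0.0220). Over the 12 pairs the trained muscle was higher in 12 of 12, by 45.8 ± 15.7 points (exact sign-flip test, p = 0.00049, the smallest that 12 pairs allow).

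The level of the IIX transcript moved less than its share. Rescaled TPM of Myh4-202 was 5871, 6128 and 6835 in trained muscles of 2 days, 11593, 10434 and 11178 at 10 days, 10891, 9895 and 8586 at 20 days and 10411, 9357 and 10332 at 30 days, against 2701 to 7236 (median 4890.2) in the 12 contralateral muscles. From 10 days on every trained muscle was above every contralateral one. On the log2(value + 1) scale the changes at 2, 10, 20 and 30 days were 0.40, 1.22, 1.04 and 1.08 (SE 0.20 each), with adjusted p = 0.153, 7.96e-05, 6.81e-04 and 5.84e-04 (limma, Benjamini-Hochberg over all transcripts). With animal as a block the calls at the ends of the course changed: the change of Myh4-202 at 2 days was 0.78 (adjusted p = 0.0136) and at 30 days 0.60 (adjusted p = 0.0669).

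The IIB transcripts, those of the fastest fibers, were nearly gone from 10 days on. The share of Myh4-203 was 39.3%, 28.3% and 24.8% in the trained muscles of 2 days, beside 49.1%, 41.4% and 43.1% in their own contralateral muscles. At 10 days it was 1.99%, 1.01% and 5.10% beside 46.1%, 43.2% and 43.1%. Each trained muscle was below its partner, and at 10 days no trained muscle came near the lowest contralateral share of 30.1%. The 20-day muscles held 1.29%, 0.595% and 0.707% beside 44.3%, 41.3% and 40.7%, and the 30-day muscles 0.267%, 0.337% and 2.38% beside 30.1%, 34.6% and 36.6%. The muscle of trained 30 days replicate 3 kept several times the share of its fellows.

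The mean share of Myh4-203 was 30.8% ± 7.57, 2.70% ± 2.14, 0.864% ± 0.373 and 0.994% ± 1.20 on the successive days (n = 3 each), a difference from contralateral muscle of -10.4, -38.4, -40.3 and -40.1 points. The exact permutation p was 0.0264 at 2 days and 0.0044 on each later day. Without trained replicate 2 or 3 the 2-day difference was -9.12 or -7.35 points, with exact permutation p = 0.0879 and 0.132. Trained was below own contralateral in 12 of 12 pairs (-32.3 ± 12.04 points, exact sign-flip test, p = 0.00049). Myh4-204 followed Myh4-203 in every muscle: its share fell from 20.1% to means of 14.1%, 1.16%, 0.422% and 0.463% (exact permutation p = 0.0132, then 0.0044), and Myh4-203 stood 1.92 to 2.52 times above it in all 24 muscles. Without trained replicate 2 or 3 the 2-day difference of Myh4-204 was -5.30 or -4.91 points, both with exact permutation p = 0.0659.

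As a level, Myh4-203 was at 6378, 3443 and 3200 rescaled TPM in trained muscles of 2 days and at 270.0, 131.8 and 663.3 at 10 days. It was at 159.8, 66.0 and 70.7 at 20 days and at 31.4, 36.6 and 289.1 at 30 days, against 4974 to 7888 (median 6813) in contralateral muscles. The groups did not overlap from 10 days on. The log2 changes were -0.68, -4.52, -6.17 and -6.54 on the successive days (SE 0.455 each), with adjusted p = 0.307, 1.41e-07, 2.25e-09 and 3.29e-09 (limma). Myh4-204 gave -0.75 (adjusted p = 0.226), -4.61, -6.13 and -6.59. The ratio of the IIX transcript over Myh4-203 summed up both movements: it ran from 0.342 to 1.46 in contralateral muscles and was 0.920, 1.78 and 2.14 in trained muscles of 2 days. It was 42.9, 79.1 and 16.9 at 10 days, 68.2, 149.9 and 121.5 at 20 days and 331.7, 255.4 and 35.7 at 30 days, so that replicate 3 of 30 days stayed among the values of the earlier days.

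**Figure D2:**
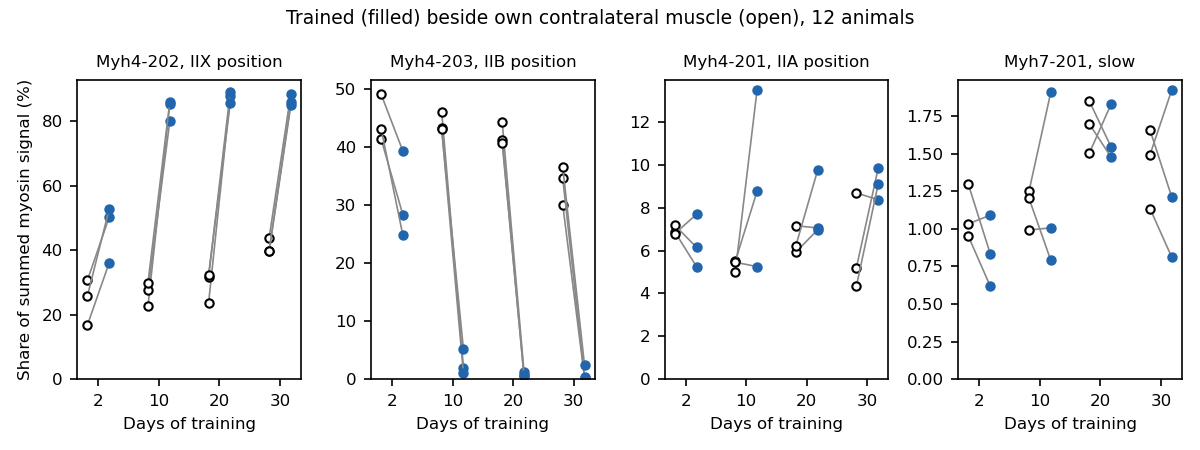
Share of the summed myosin signal (y axis, percent, one panel each for Myh4-202, Myh4-203, Myh4-201 and Myh7-201, each on its own scale) by days of training (x axis), with a line from the contralateral (open) to the trained muscle (filled) of 1 animal. The line goes up in 12 of 12 animals for Myh4-202, down in 12 of 12 for Myh4-203, up in 7 for Myh4-201 and up in 5 for Myh7-201.

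The IIA transcript Myh4-201 passed a test against the contralateral muscles as a share at 30 days and as a level on no day. Its share in trained muscles was 5.24%, 6.14% and 7.69% at 2 days, 8.77%, 13.5% and 5.25% at 10 days, 7.05%, 6.97% and 9.75% at 20 days and 8.37%, 9.84% and 9.09% at 30 days, against 4.33% to 8.68% (median 6.07%) in contralateral muscles. Most trained values lay inside the contralateral range, and the 30-day muscles were at its top or above. The difference in mean share on the successive days was 0.168, 2.98, 1.73 and 2.91 points (exact permutation p = 0.822, 0.0923, 0.0791 and 0.0088). Against own contralateral muscles the difference was -0.587, 3.85, 1.49 and 3.03 points, with 1, 2, 2 and 2 of 3 trained muscles higher. Over 12 pairs it was 1.95 ± 3.01 points, higher in 7 of 12 (exact sign-flip test, p = 0.0444), and leaving out any 1 of 7 animals (2 days replicate 3, 10 days replicates 1 and 2, 20 days replicates 2 and 3, 30 days replicates 2 and 3) gave p from 0.0547 to 0.0889. The level of Myh4-201 passed the limma test on no day: the log2 changes were -0.19, 0.20, -0.18 and 0.10, with adjusted p from 0.531 to 0.806 and 95% intervals that reached from -0.62 to 0.62 in all. Without trained 10 days replicate 3 the 10-day difference in its share was 4.94 points (exact permutation p = 0.0220), and with 1 transcript per position in the sum the 30-day difference was 1.44 points (exact permutation p = 0.141).

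Slow myosin stayed a small part of the signal. The Myh7-201 share of the trained muscles was 0.835%, 0.619% and 1.09% at 2 days, 1.01%, 1.91% and 0.792% at 10 days, 1.48%, 1.54% and 1.83% at 20 days and 1.21%, 1.93% and 0.810% at 30 days, against 0.950% to 1.85% (median 1.27%) in contralateral muscles. At 2 days replicates 1 and 2 lay below that range and replicate 3 lay within it, above its own contralateral muscle (1.03%). The later muscles ran from 0.792% to 1.93%, below and above the range as well as within it. The difference in mean share from the 12 contralateral muscles was -0.490 points at 2 days (exact permutation p = 0.0176). Without trained replicate 1 it was -0.484 points and without replicate 2 it was -0.376, both with exact permutation p = 0.0879. On later days it was -0.103, 0.279 and -0.0232 points (exact permutation p = 0.686, 0.154 and 0.941), and over 12 pairs -0.0845 ± 0.379 points, with the trained muscle higher in 5 of 12 (exact sign-flip test, p = 0.449). Against own contralateral muscles the difference was -0.245, 0.0866, -0.0662 and -0.1135 points on the successive days, with 1, 2, 1 and 1 of 3 trained muscles higher.

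Measured as a level, Myh7-201 was the single member that limma called at 2 days, 1 of 9 where 22.9% of all transcripts were called. It was at 135.6, 75.4 and 141.0 rescaled TPM, against 132.2 to 300.8 (median 211.6) in contralateral muscles, a log2 change of -0.90 ± 0.27 (adjusted p = 0.0165). The contralateral muscles of 2 days were at 208.1, 132.2 and 168.5, all under that median. The change was -0.56 with animal as a block (adjusted p = 0.117), and leaving out trained replicate 2 gave -0.61 (adjusted p = 0.234). Later log2 changes of Myh7-201 were -0.47, -0.24 and -0.56, with adjusted p = 0.218, 0.615 and 0.163, and with values as deposited the 30-day change was -0.78 (adjusted p = 0.0400). With animal as a block the later changes were -0.28, -0.67 and -0.67 (limma adjusted p = 0.458, 0.0749 and 0.093). The level was below that of the own contralateral muscle in every animal but that of 10 days replicate 2 (log2 ratio 0.225).

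Both developmental myosins rose at 10 days, and together they never exceeded 0.468% of the signal. Myh3-201, the embryonic form, was at 10.5, 16.6 and 15.2 rescaled TPM in trained muscles of 2 days, against 4.65 to 11.3 (median 6.89) in contralateral muscles. At 10 days it was at 25.8, 46.2 and 5.45, so that 2 muscles were far above and 1 was within the contralateral range. At 20 days it was at 5.44, 5.41 and 7.42 and at 30 days at 6.42, 7.30 and 12.1. The log2 changes of Myh3-201 were 0.89 ± 0.34 at 2 days (adjusted p = 0.0643), 1.33 ± 0.34 at 10 days (adjusted p = 0.00658), -0.19 at 20 days and 0.22 at 30 days. The 2-day change was called with values as deposited (1.00, adjusted p = 0.0374) and with a filter on a mean of at least 10 (adjusted p = 0.0371). The 10-day call rested on its 2 high muscles: leaving out replicate 1 gave 1.12 (adjusted p = 0.0708), and leaving out replicate 2 gave 0.71 (adjusted p = 0.161). As a share, Myh3-201 made 0.106% ± 0.0369 of the signal at 2 days and 0.195% ± 0.156 at 10 days (exact permutation p = 0.0088 and 0.0308), then 0.0556% and 0.0739% (exact permutation p = 0.167 and 0.0220). Without replicate 1 or 2 of 10 days p was 0.154, and without replicate 2 or 3 of 30 days it was 0.0659 or 0.110 (exact permutation). With 1 transcript per position in the sum, p was 0.0571 at 10 days and 0.114 at 30 days (exact permutation).

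The neonatal form was more even among animals. Myh8-201 was at 6.67, 4.38 and 6.58 rescaled TPM in trained muscles of 2 days and at 24.2, 14.8 and 13.95 at 10 days, against 2.77 to 8.09 (median 5.72) in contralateral muscles. It was at 9.88, 10.1 and 6.22 at 20 days and at 9.03, 10.6 and 10.4 at 30 days. The 10-day and 30-day muscles were above all contralateral ones. Its log2 changes were 0.13 (adjusted p = 0.736), 1.54 ± 0.23 (adjusted p = 2.94e-05), 0.62 (adjusted p = 0.0694) and 0.82 ± 0.23 (adjusted p = 0.0164). The 30-day call was lost with animal as a block (0.52, adjusted p = 0.269), with values as deposited (0.62, adjusted p = 0.0643) and without trained replicate 2 or 3 (adjusted p = 0.0812 and 0.0758), and the 20-day change was 0.82 without trained replicate 3 (adjusted p = 0.0440). The share of Myh8-201 was 0.0426%, 0.133%, 0.0778% and 0.0866% on the successive days (exact permutation p = 0.128, then 0.0044), and the trained muscle was higher in 12 of 12 pairs (exact sign-flip test, p = 0.00049). The span of Myh8-201 overlaps that of Myh4-204, which moved the other way.

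**Figure D3:**
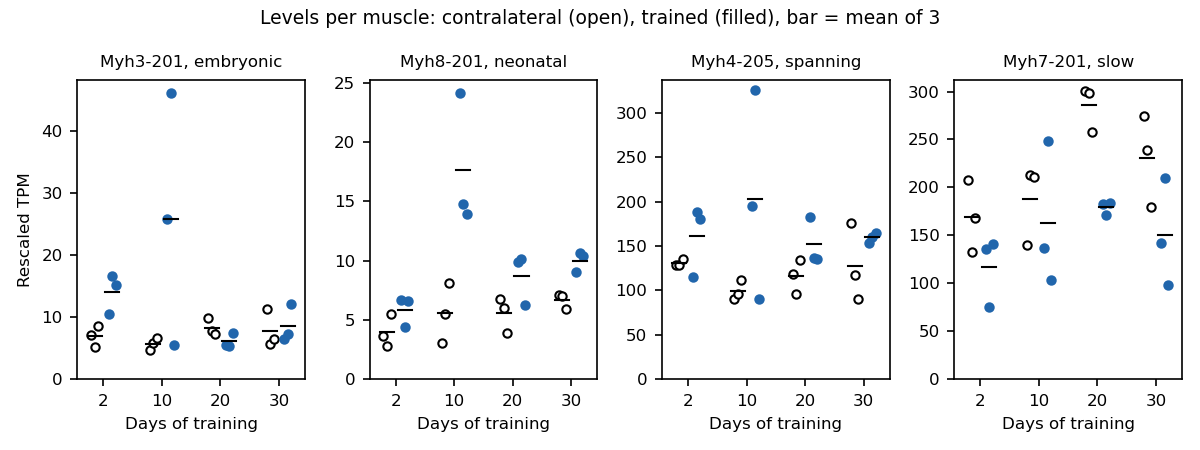
Rescaled TPM (y axis, own scale per panel) of Myh3-201, Myh8-201, Myh4-205 and Myh7-201 in each contralateral (open) and trained (filled) muscle by days of training (x axis), with the mean of 3 as a bar. Myh3-201 reaches 46.2 in 1 trained muscle of 10 days and 5.45 in another, and Myh8-201 lies between 13.95 and 24.2 in all 3.

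Of the spanning transcripts, Myh4-205, which runs over the IIA and IIX positions, was at 89.8 to 325.1 rescaled TPM in trained and 89.9 to 176.0 in contralateral muscles. Its log2 changes of 0.43, 0.62, 0.37 and 0.45 did not pass the limma test (adjusted p = 0.213, 0.0731, 0.353 and 0.228), but the 10-day change of Myh4-205 was called without trained replicate 3 (1.11, adjusted p = 9.06e-04), with values as deposited (0.74, adjusted p = 0.0175), with a filter on a mean of at least 10 (0.62, adjusted p = 0.0474) and without contralateral 30 days replicate 1 (0.67, adjusted p = 0.0452). Its share was 1.22%, 1.54%, 1.35% and 1.38% on the successive days against 0.733%, higher in 11 of 12 pairs (exact sign-flip test, p = 0.00146). The ratio of Myh4-201 over Myh4-205 was 7.07 to 10.7 in contralateral and 3.98 to 7.60 in trained muscles. Myh4-206, which runs over all 3 fast positions, was at most 37.9 rescaled TPM. It was at 3.19, 2.72 and 2.76 in trained muscles of 20 days and at 3.58, 3.15 and 3.81 at 30 days, within the contralateral range of 1.68 to 37.9. Its log2 change at 20 days was -1.64 (adjusted p = 0.0876), and with animal as a block it was -2.31 (adjusted p = 0.0200). Its share was lower in 9 of 12 pairs (exact sign-flip test, p = 0.0259), a result lost without any 1 of 5 animals (10 days replicate 3, 20 days replicates 1, 2 and 3, 30 days replicate 3; p from 0.0508 to 0.0518).

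Counted together, limma called 1, 5, 3 and 4 of the 9 transcripts at 2, 10, 20 and 30 days, where 22.9%, 22.8%, 16.6% and 16.0% of all 13452 transcripts were called. The counts with animal as a block were 1, 5, 4 and 2, and the background 15.3%, 13.9%, 11.6% and 7.74%. At 10 days Myh4-202, Myh3-201 and Myh8-201 rose and Myh4-203 and Myh4-204 fell. At 20 days Myh4-202 rose and Myh4-203 and Myh4-204 fell, and at 30 days Myh8-201 joined those that rose. The overlapping IIB transcripts count as 2 here. The median log2 change over all transcripts was -0.02, -0.03, -0.03 and -0.01 on the successive days, and 54.9%, 55.7%, 56.2% and 54.0% of all calls were higher in trained muscle. With values as deposited that median was 0.07, 0.07, -0.03 and -0.18 and the share of higher calls 74.9%, 76.4%, 61.6% and 20.3%, so small changes depend on the scaling.

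**Figure D4:**
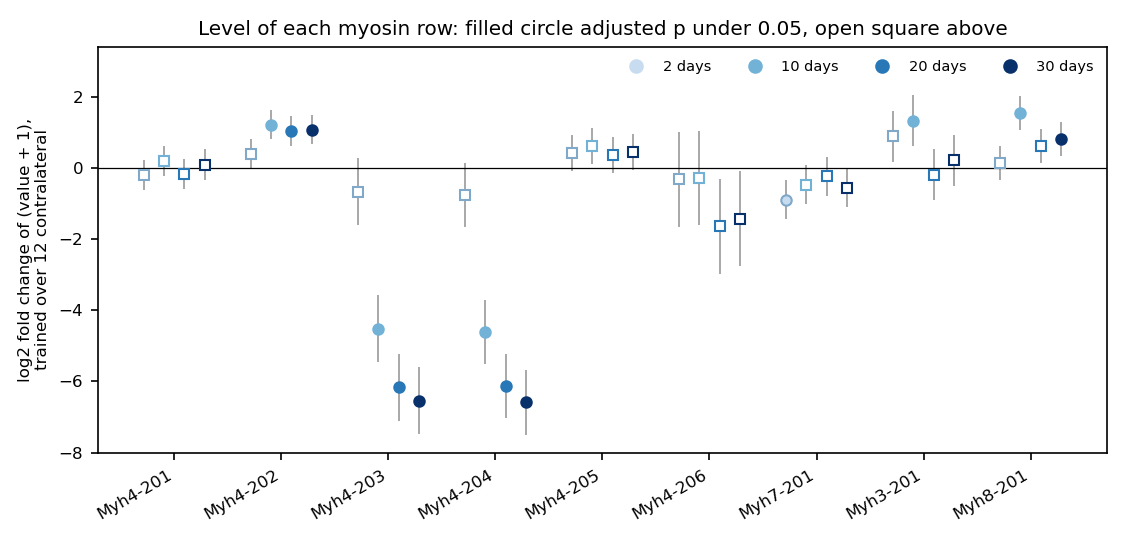
Points give the log2 fold change of (value + 1) in trained over the 12 contralateral muscles (y axis) for each of the 9 transcripts (x axis) at 2, 10, 20 and 30 days (light to dark), with the 95% interval as a bar. Filled circles passed limma at an adjusted p under 0.05. Myh4-203 and Myh4-204 lie between -4.52 and -6.59 from 10 days on and Myh4-202 between 1.04 and 1.22.

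Among successive days, members were called from 2 to 10 days and not later. Direct contrasts of trained groups called 3 of 9 members from 2 to 10 days, where 1.20% of all transcripts were called: Myh4-203 fell by 3.84 and Myh4-204 by 3.86 on the log2 scale (adjusted p = 0.00123 and 7.52e-04), and Myh8-201 rose by 1.42 (adjusted p = 0.0175). The rise of Myh8-201 was lost without trained 2 days replicate 2 or 3 or trained 10 days replicate 1 (adjusted p from 0.0505 to 0.111). Trained muscles of different days come from different animals, so with a term per animal this contrast becomes that of the within-animal differences given next. Myh4-202 had a change of 0.82 (adjusted p = 0.120). From 10 to 20 and from 20 to 30 days limma called 0 of 9, with an unadjusted p under 0.05 for 4 and 0 of them, where 3 of all transcripts (0.0223%) were called in each. The changes of Myh4-203 were then -1.65 (adjusted p = 0.375) and -0.38 (adjusted p = 0.922), those of Myh4-202 -0.18 and 0.04, and Myh3-201 had a change of -1.52 from 10 to 20 days (adjusted p = 0.214). Without trained 10 days replicate 3, 1 of 9 was called from 10 to 20 days, where 79 of all transcripts (0.587%) were called.

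When each trained muscle was set against its own contralateral muscle, the difference at 10 days was not called apart from that at 2 days for any of the 9 (limma with a term per animal, 0.0223% of all transcripts called; 4 of 9 had an unadjusted p under 0.05). The differences of Myh4-203, Myh4-204 and Myh8-201 were -3.90, -3.92 and 1.06 there (adjusted p = 0.125, 0.125 and 0.510). Against 2 days, Myh4-203 and Myh4-204 differed by -5.56 and -5.38 at 20 days (both adjusted p = 0.0151, where 0.476% of all transcripts were called) and by -5.53 and -5.52 at 30 days (adjusted p = 0.00872 and 0.00810, where 1.00% were called). The 20-day calls were lost when any 1 of 4 animals was left out (2 days replicates 2 and 3, 20 days replicates 2 and 3; adjusted p from 0.0679 to 0.0818). Myh4-202 differed from 2 days by 0.59, 0.21 and -0.18 within animals (adjusted p = 0.607, 0.741 and 0.785).

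Contralateral muscles were not alike in their IIX share. It was 39.7% to 43.7% at 30 days and 16.8% to 32.2% in the 9 contralateral muscles of the other days, with no overlap. The share of Myh4-203 was 30.1% to 36.6% at 30 days and 40.7% to 49.1% on the other days. This difference was noticed in the values and was given no test of its own. In the comparison of contralateral muscles over the 4 days (limma F test), 0 of 9 members were called, where 8 of all transcripts (0.0595%) were called. The 1 member with an unadjusted p under 0.05 was Myh4-202 (limma adjusted p = 0.297). With the 30-day muscles left out of the controls, an alternative added after the values were seen, the difference in the share of Myh4-202 was 19.7, 57.0, 60.9 and 59.8 points on the successive days, and with own contralateral muscles as control it was 45.5 points at 30 days.

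The summed myosin signal was lower late in training. It was 13910 to 17727 rescaled TPM in contralateral muscles (mean 16191 ± 1177), 12175 to 16239 in trained muscles of 2 days, 13007 to 13574 at 10 days, 10003 to 12383 at 20 days and 10870 to 12151 at 30 days. On this scale every trained muscle from 10 days on lay below every contralateral one, whereas with values as deposited the 10-day muscles (13256 to 15432) lay within the contralateral range (12714 to 18863) and the later ones (8775 to 11135) below it. This sum was not tested. The 3 fast positions together made 95.1% to 98.3% of it in all 24 muscles. The deposited table of whole genes, a scaled signal, held 4635 genes with 1 combined value for Myh4, and it had no entry named Myh8. Combined Myh4 was 726 ± 128 (n = 12) in contralateral and 708 ± 141, 698 ± 59.7, 474 ± 10.5 and 377 ± 49.1 (n = 3 each) in trained muscles of 2, 10, 20 and 30 days, and this combined value does not separate the positions. Myh3 in that table was 1.85 ± 0.468 in contralateral and 4.14, 7.80, 1.52 and 1.60 in trained muscles, and Myh7 was 61.1 ± 18.7 against 37.1, 53.0, 47.6 and 30.1.

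Of 7 other sarcomeric myosins listed, Myh6 and Myh7b could be tested. Myh7b, a slow-type myosin of heart and muscle, fell at 2 days (-0.50, limma adjusted p = 0.0148) and 30 days (-0.65, limma adjusted p = 0.00297). Its level was near the filter value of 1 rescaled TPM. The mean was 1.98 in contralateral muscles and 1.107, 1.485, 1.249 and 0.881 in trained muscles of 2, 10, 20 and 30 days. With animal as a block Myh7b was called at 2 days (adjusted p = 0.00388) and 20 days (adjusted p = 0.0160) and not at 30 days (adjusted p = 0.0994). Of 4 non-muscle and smooth muscle myosins, Myh9 rose on all 4 days (1.12, 0.71, 0.73 and 0.64) and Myh10 at 2 and 10 days. Under the block by animal Myh9 was called at 2 days alone and Myh10 on no day. Fibroblast and macrophage marker sums were higher in trained muscles by the values given above, and their part in the Myh9 values was not tested.

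Among 13 tested partners of fast myosin in the sarcomere and in glycolytic fibers, 0 rose on any day (limma; 0, 2, 0 and 0 at an unadjusted p under 0.05) and 6, 7, 7 and 8 fell at 2, 10, 20 and 30 days, where 22.9%, 22.8%, 16.6% and 16.0% of all transcripts were called in either direction. Their median log2 change was -0.57 at 30 days beside -0.01 over all transcripts. Pvalb, the calcium buffer of fast fibers, fell by 0.98, 2.27, 3.23 and 3.16 on the log2 scale. Actn3, the alpha-actinin of the fastest fibers, fell by 0.74, 1.44, 1.84 and 2.18, and Gpd1, glycerol-3-phosphate dehydrogenase, by 1.87, 1.48, 0.81 and 1.01. With animal as a block 5, 5, 5 and 6 were called, all lower, where 15.3%, 13.9%, 11.6% and 7.74% of all transcripts were, and Gpd1 was not called at 20 days (adjusted p = 0.0731) or 30 days (adjusted p = 0.0619). The troponins Tnnt3 and Tnni2 and the light chains Mylpf and Myl1, named after their values were seen, were not called on any day.

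Of 12 slow-fiber partners tested, 1, 2, 1 and 1 rose and 4, 1, 0 and 1 fell, with a median of -0.23 at 30 days. The low-level Myh7b reported above is among these 12. It is the one that fell at 30 days and, with the block, the one that fell at 20 days. The block by animal called 1, 2, 1 and 0 that rose and 2, 0, 1 and 0 that fell. With the block, 15.3%, 13.9%, 11.6% and 7.74% of all transcripts were called. Without the block, 22.9%, 22.8%, 16.6% and 16.0% of all transcripts were called, and the counts from 10 days on were near that background or under it. Myoglobin (Mb), the oxygen store of oxidative fibers, fell by 0.64 at 2 days and rose by 0.57, 0.74 and 0.65 later, the last not called with the block (adjusted p = 0.0671). Casq2, the slow and cardiac calsequestrin, rose at 2 and 10 days (1.29 and 1.40). The slow troponins Tnnt1, Tnni1 and Tnnc1, also named after their values were seen, were not called on any day, with log2 changes from -0.70 to 0.03.

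**Figure D5:**
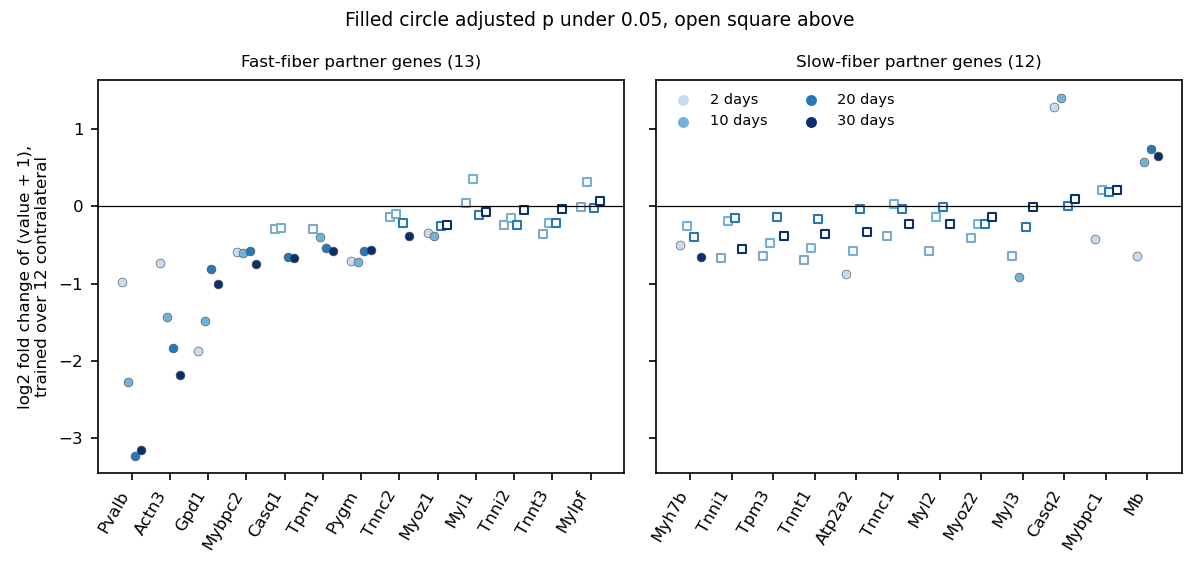
Points give the log2 fold change of (value + 1) in trained over contralateral muscles (y axis) at 2, 10, 20 and 30 days (light to dark) for 13 fast-fiber and 12 slow-fiber partner genes (x axis, ordered by the 30-day change). Filled circles passed limma at an adjusted p under 0.05. Pvalb reaches -3.23 and Actn3 -2.18, while no fast partner has a filled point above 0.

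Of 28 tested regulators of fast and slow myosin genes, 5, 4, 2 and 2 rose and 4, 6, 7 and 5 fell, beside the same shares over all transcripts. The block by animal gave 4, 4, 2 and 2 that rose and 3, 5, 8 and 6 that fell. With the block, 15.3%, 13.9%, 11.6% and 7.74% of all transcripts were called. At 30 days Mafa (-2.06) and Maf (-1.19), which drive fast myosin genes, fell. Both were also called with animal as a block. Rcan1, a calcineurin target and inhibitor, rose by 2.86, 3.09, 2.01 and 1.77, and Ppargc1a, the coactivator of mitochondrial genes, by 0.69, 1.70, 1.03 and 1.41. Mstn, the growth inhibitor myostatin, rose by 0.75 at 2 days and fell by 0.98 and 1.04 at 20 and 30 days. Of 10 genes for the folding, assembly and turnover of myosin, 4, 3, 3 and 2 rose and 2, 0, 0 and 1 fell. The shares of all transcripts called were 22.9%, 22.8%, 16.6% and 16.0%. With animal as a block 4, 3, 3 and 2 of the 10 rose and 2, 0, 0 and 0 fell. The shares of all transcripts were then 15.3%, 13.9%, 11.6% and 7.74%. The chaperone Hsp90aa1 rose by 1.68 at 2 days and 0.95 at 30 days, the ligase Trim63 by 1.13 and 0.70, and the small heat shock protein Hspb1 by 2.45 at 2 days. Of 11 tested genes of regenerating and immature fibers, 4 rose at 2 days, 2 at 10 days and 0 later (limma; 3 of 11 at an unadjusted p under 0.05 at 20 and at 30 days). Beside the 22.9% and 22.8% of all transcripts called at 2 and 10 days, the 10-day count was under the background. The myogenic factors Myog (1.40) and Myf6 (1.17) and the embryonic and cardiac troponin Tnnt2 (0.95) led at 2 days. With animal as a block 3 rose at 2 days and 1 at 10 days, where 15.3% and 13.9% of all transcripts were called. Myog (limma adjusted p = 0.0601) and Tnnt2 (limma adjusted p = 0.0731) were not among those 3 at 2 days.

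The transcripts most like each member were found by the root mean square difference between log2 ratios of trained over own contralateral muscle in the 12 animals. For Myh4-203 the most alike of those compared were 2 transcripts of Tnnt3, Tnnt3-206 (1.77) and Tnnt3-201 (1.82), followed by Pvalb (2.71). The median over all compared was 5.06, and a transcript with no change in any animal would differ from Myh4-203 by 5.09. The mean log2 ratio of Tnnt3-206 was -0.91, -3.51, -4.36 and -3.60 on the successive days, whereas the Tnnt3 transcript with the highest mean, Tnnt3-202, was the one not called above. For Myh4-202 they were Cdh13 (0.297), Actn2 (0.318) and Efna1 (0.326) against a median of 1.11, and for Myh4-201 Smtnl1 (0.307) and Tceal7 (0.315) against 0.632. Myh7-201 had the slow-fiber genes Atp2a2 (0.198) and Tnni1 (0.230) against 0.692, Myh3-201 had Casq2 (0.553) and Xirp2 (0.664) against 1.33, and Myh8-201 had Myh4-202 (0.421) and Cdh13 (0.451) against 1.11. A transcript with no change would differ by 1.01 from Myh4-202, 0.527 from Myh4-201, 0.661 from Myh7-201, 1.23 from Myh3-201 and 0.992 from Myh8-201.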

How the data were processed

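Poly(A) RNA of 24 muscles was sequenced. Per the labels and the study's methods, the authors aligned reads to Rnor_6.0 (rn6) with STAR in Partek and quantified Ensembl transcripts (submitters' processing notes also name DESeq2). The deposited transcript table is of TPM type: length-scaled, with the same total of 634431 in every sample. Depth and counting precision of single samples cannot be read from it, and the study calls its read depth moderate. The deposited gene table holds signal, scaled per sample by the authors with a factor not given in the sources used here. The authors' comparison columns (p-values, FDR, ratios) were not used. No 2 of the 24 libraries were identical (0 of 276 pairs).

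Values were rescaled by median of ratios, and the 13452 transcripts that reached 1 in 3 or more samples were tested on log2(value + 1) with limma 3.58.1 in R 4.3.3, Benjamini-Hochberg over all of them, threshold 0.05, with 12 contralateral muscles as 1 control group as in the study. The labels give both legs of an animal the same number, which pairs them. Deviations from group means correlated with a median r of 0.133 within animals (lowest 0.0174, over 0.1 in 7 of 12) and -0.0032 between others. Shares were compared by exact permutation (36 tests, 3 against 12, smallest p 0.0044) and over 12 animals by exact sign flip (9 tests, smallest p 0.000488), unadjusted; with 3 pairs a sign flip cannot go below 0.25. Nothing in the labels separates animal from library handling, so p-values measure the spread between these samples.

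Transcripts were given gene positions by cluster order. The design merged overlapping Myh4 transcripts into positions, and since Myh4-205 and Myh4-206 join all of them, these 2 were set aside first. All members are named. From each gene list (1 transcript a gene, highest mean) up to 3 a direction are named by size of change at 30 or 2 days. One regulator that this rule named is not reported here. The members and lists were chosen with earlier results of these data known. On simulated data for the 10-day comparison (20 draws, 200 of 13452 transcripts changed), the fit recovered 97.9% of log2 changes of 1 and 99.9% of changes of 2, with 4.07% false calls. With the block these were 89.2%, 99.8% and 5.07%. Transcripts with low contralateral values, Myh3-201 and Myh8-201 among them, were not drawn as changed. The simulated spread of every group was taken from contralateral muscles. For Myh3-201 the SD was 20.4 rescaled TPM in trained muscles of 10 days and 1.95 in contralateral ones. These rates therefore need not hold for such transcripts. Alternatives changed the scaling, pseudocount, filter, controls, block, denominator and replicates. Python 3.11.15, numpy 2.4.6, pandas 2.3.3, scipy 1.17.1 and matplotlib 3.10.9 were used.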

Additional observations from a re-analysis of the deposited data

Results flagged for a closer look

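The difference between trained and own contralateral muscle was not the same on all days for the IIB transcripts (limma, contrast of within-animal differences, Benjamini-Hochberg over all transcripts). Relative to 2 days, Myh4-203 differed by -5.56 on the log2 scale at 20 days (adjusted p = 0.0151) and by -5.53 at 30 days (adjusted p = 0.00872), and Myh4-204 by -5.38 (adjusted p = 0.0151) and -5.52 (adjusted p = 0.00810). The 20-day calls of both were lost without the animal of 2 days replicate 2 or 3 or of 20 days replicate 2 or 3 (adjusted p from 0.0679 to 0.0818), while the 30-day calls of both were kept without any 1 of the 6 animals compared.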

How the results depend on the processing

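With animal as a replicate block, the number of members called at 30 days was 2 instead of 4. From 2 to 10 days differences within animals, another contrast than that of trained values, gave 0 calls instead of 3. At 2 days 2 members instead of 1 were called with values as deposited, with a filter on a mean of at least 10, and with the 30-day muscles left out of the controls (an alternative chosen after seeing the data). Of all transcripts, 21% were called at 2 days with values as deposited and 21% without those controls. Under the filter 42% of 3916 transcripts were called, and Myh8-201 (mean 8.01) was not tested. The 30-day log2 change of Myh4-201 was -0.13 with values as deposited. With 1 transcript per position in the sum, the share difference of Myh4-201 was -0.339 points at 2 days and 1.44 at 30 days, and that of Myh7-201 was -0.0434 at 20 days. With own contralateral muscles as control (pairing by animal), the 30-day difference was 45.5 points for Myh4-202 and -32.8 for Myh4-203, and the 20-day difference of Myh7-201 was -0.0662. Without the 30-day controls the 30-day difference of Myh7-201 was 0.00686. The causes were not tested.

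When 1 replicate was left out, the calls ranged from 0 to 1 at 2 days and from 10 to 20 days, and from 0 to 2 for 20 against 2 days within animals. Share differences at 2 days ranged from -0.499 to 0.726 points for Myh4-201, 12.9 to 21.3 for Myh4-202, -14.6 to -7.35 for Myh4-203, -0.612 to -0.376 for Myh7-201 and -0.0321 to 0.0132 for Myh4-206. They ranged from 0.814 to 4.94 (Myh4-201) and -0.440 to 0.119 (Myh7-201) at 10 days, -0.328 to 0.229 (Myh7-201) at 30 days and 1.35 to 2.27 (Myh4-201) over the 12 pairs. Log2 changes ranged from -0.81 to 0.39 (Myh4-206, 2 days), -0.13 to 0.56 (Myh4-201, 10 days) and -0.0295 to 0.38 (Myh3-201, 30 days). Weighting shares by transcript length was not run, since the table gives no lengths. The calls of Myh4-203 and Myh4-204 against contralateral muscles at 10, 20 and 30 days held under every alternative run.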
